A study of Mus musculus with 10 samples.

Results

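The genes described here are 10 mouse genes that make, spend or carry the amino acid arginine: Arg1, Arg2, Nos2, Ass1, Asl, Odc1, Oat, Srm, Slc7a1 and Slc7a2. They were found by symbol among the 55385 genes of the count table, and all 10 were present. Arg1 entered the list because it rose in the comparison described below, that is, it was chosen by its fold change here, so its values are given as a description without a test, and the other 9 were listed beside it by their role. The cells were APV245 (written APC245 in the design text), a mouse ovarian cancer line with Arid1a and Pik3ca mutations that both groups share. In 5 libraries the label was IL6 shRNA1, a short hairpin RNA aimed at Il6, with the genotype given as IL6 knockdown. The other 5 were labelled control shRNA, a non-mammalian hairpin in the pLKO.1-puro vector, with the genotype given as WT. The labels speak of untreated tumour cells in DMEM culture and of batch 1 for all, whereas the design text speaks of tumours under the skin, and neither gives an age, a time or the number of clones. The labels number the libraries 1 to 5 in each group without saying that they came from separate tumours or cultures, so the p-values below measure only the spread between these libraries.

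Arginine is taken up by cationic amino acid transporters, among them the products of Slc7a1 and Slc7a2. Arginases (Arg1 in the cytosol, Arg2 in mitochondria) split it into urea and ornithine, while the inducible nitric oxide synthase Nos2 turns it into nitric oxide and citrulline, from which Ass1 and Asl rebuild it. Ornithine feeds the polyamines through Odc1 and Srm, and glutamate and proline through Oat. In mouse macrophages Arg1 is a classic gene of the response to interleukin-4 and Nos2 one of the response to interferon gamma and bacterial lipopolysaccharide, and Arg1-bearing myeloid cells in tumours are known for using up arginine.

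The total of gene counts was 17905397 to 19934278 in the IL6 shRNA1 libraries and 18224751 to 22682346 in the control libraries. Il6, the gene named on the hairpin's label, had 1.07, 1.83, 2.18, 1.80 and 1.75 CPM (counts scaled to library size) in IL6 shRNA1 libraries 1 to 5, against 1.61, 0.438, 2.06, 1.34 and 0.830 CPM in control libraries 1 to 5. Its mean was 1.73 ± 0.406 CPM in IL6 shRNA1 libraries and 1.26 ± 0.639 CPM in control libraries (SD, n = 5 each), and the difference did not pass the test (log2 fold change 0.44, 95% interval -0.36 to 1.24, adjusted p = 0.44 by edgeR's quasi-likelihood test with Benjamini-Hochberg adjustment). The log2 fold change was 0.036 without the 3 libraries farthest out in a principal component analysis, and it turned to -0.55 (adjusted p = 0.56) with a leukocyte marker score as a covariate. Every direction below is that of the libraries labelled IL6 shRNA1. Markers of many cell types beside tumour cells were counted. Of the 15064 genes tested, 5.62% were called higher in IL6 shRNA1 libraries and 6.16% lower, and the list counts stand beside these shares. The 13 macrophage and monocyte markers summed to 1709 to 2924 CPM in IL6 shRNA1 libraries and 763 to 1803 CPM in control libraries, and 8 of the 13, Csf1r and Lyz2 among them, were higher in IL6 shRNA1 libraries. The 10 general leukocyte markers summed to 700 to 1245 CPM in IL6 shRNA1 libraries and 345 to 895 CPM in control libraries, and 3 of them rose, Laptm5 and Itgb2 included. These calls depended on which libraries were included. With 1 library left out the macrophage count ran from 0 (without IL6 shRNA1 library 2, 3 or 4 or control library 5) to 10, and the leukocyte count was 0 in 8 of 10 omissions, 9 without IL6 shRNA1 library 1 and 10 without control library 1. Both counts were 0 without the 3 libraries that stood apart, and DESeq2 called 11 and 10 markers of these lists. Over all genes tested, calls fell from 1775 to 212 without those 3 libraries, and DESeq2 called 3027. Of the dendritic cell markers Itgax rose (1 of 5), of the fibroblast and pericyte markers Dcn fell (1 of 6), and of the ovarian epithelial and mesothelial markers Upk3b rose (1 of 8). With 1 call in lists this short, no reading about these cell types is taken. Without the 3 libraries that stood apart none of these 3 genes passed (edgeR adjusted p = 0.067 for Itgax, 0.057 for Dcn and 0.13 for Upk3b). Upk3b lost its call in 7 of 10 omissions of 1 library (adjusted p up to 0.089). In 8 further lists, for neutrophils, T and NK cells, B cells, endothelium, keratinocytes, adipocytes, skeletal muscle and erythroid cells, 33 markers were tested and 0 were called by edgeR, with 12 at an unadjusted p under 0.05, 6 called by DESeq2 and 1 by limma voom. The share of all genes tested at that unadjusted threshold is not given here, so no reading is taken from the 12. Skeletal muscle markers ranged most, with sums of 34.1 to 8556 CPM in IL6 shRNA1 libraries and 15.5 to 934 CPM in control libraries. Markers of hepatocytes, the classic site of Arg1, were at or near 0, since the 5 of them summed to at most 0.164 CPM in IL6 shRNA1 libraries and 0.097 CPM in control libraries, with Ttr and Fgb at 0. Over the first principal component of the log2 CPM values, 3 libraries lay farthest out: IL6 shRNA1 library 5 and control libraries 2 and 5. Values without these 3 far libraries are given beside the results below.

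Levels of different genes were compared per unit of gene length. Their FPKM values (counts divided by gene length and library total) averaged over the 10 libraries were 93.6 for Srm, 91.2 for Oat, 74.6 for Odc1, 30.2 for Slc7a2, 15.8 for Ass1, 8.13 for Slc7a1, 6.27 for Asl, 6.27 for Arg1, 0.982 for Nos2 and 0.269 for Arg2. The polyamine enzymes Srm and Odc1 and the ornithine aminotransferase Oat thus held the highest levels per length, and Nos2 and Arg2 the lowest. Ranges of neighbours in this order overlapped except those of Arg1 above Nos2 and of Nos2 above Arg2, where all 10 libraries kept the order. Srm stood above Oat in only 5 of 10 libraries, so those neighbours cannot be ranked. Asl stood above Arg1 in 6 of 10, and that order split by group. Asl was above Arg1 in every control library (mean FPKM 5.69 against 2.68). In the IL6 shRNA1 group Asl was above Arg1 only in library 4 (mean FPKM 6.86 for Asl and 9.87 for Arg1). The split holds Arg1's selected rise.

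**Figure D1:**
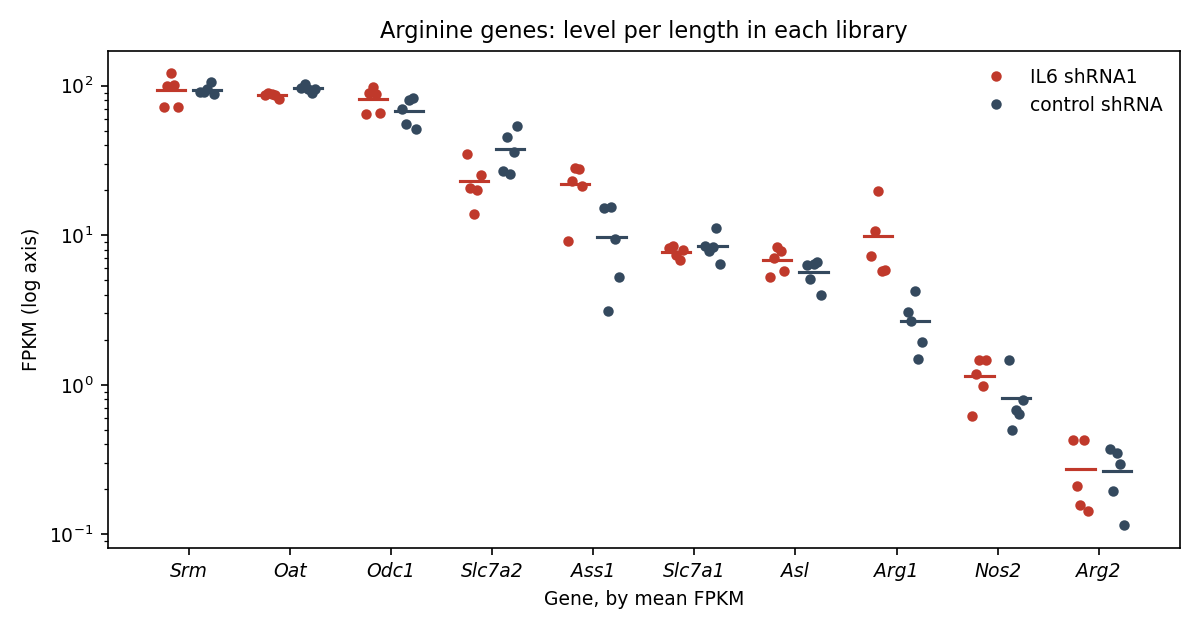
Level per gene length (FPKM, log axis) of the 10 arginine genes in each library, IL6 shRNA1 in red and control shRNA in blue, with a line at each group's mean. Arg1 alone has no overlap between the groups, Ass1 spreads from 3.14 to 28.2 FPKM, and Oat stays between 80.8 and 103 FPKM.

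Arg1 (ENSMUSG00000019987.9, GRCm38 chromosome 10, 24915221 to 24927484, minus strand) encodes the cytosolic arginase. It had 16.9, 23.6, 43.2, 12.2 and 13.4 CPM in IL6 shRNA1 libraries 1 to 5, against 6.53, 6.28, 8.89, 3.26 and 4.63 CPM in control libraries 1 to 5. Every IL6 shRNA1 library lay above every control library, and IL6 shRNA1 library 3 was the highest. The means were 21.9 ± 12.7 CPM in IL6 shRNA1 libraries and 5.92 ± 2.13 CPM in control libraries (SD, n = 5 each), a ratio of 3.69 and a fitted log2 fold change of 1.88. The counts behind them were 250 to 791 and 63 to 207 per library. With the leukocyte score (the mean centred log2 CPM of the 10 leukocyte markers) as a covariate the fitted value was 1.66, and without the 3 far libraries it was 1.93. In RNA from mixed cells, a change in the number of cells of a type and a change in RNA per cell cannot be told apart. Set against the macrophage markers of the same library, Arg1 stood at 9.91, 9.12, 15.4, 4.22 and 4.58 CPM per 1000 CPM of those markers in IL6 shRNA1 libraries and at 3.62, 8.23, 5.34, 2.54 and 4.14 in control libraries. On that scale the groups overlapped.

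Arg2 (chromosome 12, 79130777 to 79156301, plus strand), the mitochondrial arginase, was close to the limit of counting, with 3 to 12 counts per library, and did not pass the filter on low counts. It had 0.641, 0.296, 0.218, 0.584 and 0.212 CPM in IL6 shRNA1 libraries, against 0.509, 0.292, 0.472, 0.414 and 0.178 CPM in control libraries. The groups overlapped throughout (exact two-sided permutation test over 252 regroupings, p = 0.89), and no difference was detectable at this depth. Its locus overlaps Vti1b and Gm48780 on the other strand, so with no strand setting given some of these few counts may be shared. Arg1 made up 96.5% ± 2.62 of the summed arginase FPKM in IL6 shRNA1 libraries and 90.5% ± 4.39 in control libraries (SD, n = 5 each).

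Nos2 (chromosome 11, 78920787 to 78960254, plus strand) encodes the inducible nitric oxide synthase, which competes with arginase for the same substrate. It had 2.89, 5.19, 6.39, 4.19 and 6.77 CPM in IL6 shRNA1 libraries, against 6.28, 2.34, 2.83, 2.79 and 3.80 CPM in control libraries. Control library 1 exceeded 3 of the 5 IL6 shRNA1 libraries, and the groups overlapped. The log2 fold change was 0.49 ± 0.31 (SE, 95% interval -0.18 to 1.16), which did not pass the test (edgeR adjusted p = 0.30), and it was 0.23 without the 3 far libraries. Per length, Arg1 was 3.94 to 13.5 times Nos2 in IL6 shRNA1 libraries and 2.07 to 6.25 times Nos2 in control libraries, a ratio that overlapped between groups and holds Arg1's selected rise in its numerator. Per 1000 CPM of macrophage markers, Nos2 stood at 1.95 ± 0.373 CPM in IL6 shRNA1 libraries and at 2.76 ± 0.788 CPM in control libraries.

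Ass1 (ENSMUSG00000076441.9, chromosome 2, 31470207 to 31520672, plus strand) encodes argininosuccinate synthase, which joins citrulline to aspartate in the step that limits the rebuilding of arginine. It had 23.1, 54.7, 66.5, 64.1 and 53.6 CPM in IL6 shRNA1 libraries, against 35.5, 7.99, 35.0, 22.4 and 13.8 CPM in control libraries. IL6 shRNA1 library 1 fell below control libraries 1 and 3, while the other 4 IL6 shRNA1 libraries exceeded all controls, and 23 of the 25 pairs of libraries had the IL6 shRNA1 library above. Means were 52.4 ± 17.3 CPM in IL6 shRNA1 libraries and 22.9 ± 12.3 CPM in control libraries (SD, n = 5 each). Its log2 fold change of 1.19 ± 0.42 (SE, 95% interval 0.26 to 2.12) missed the threshold (edgeR adjusted p = 0.090). DESeq2 put it past (adjusted p = 0.042), as did edgeR without IL6 shRNA1 library 1 (adjusted p = 0.040). With the leukocyte score as a covariate it was -0.14 (adjusted p = 0.84), and without the 3 far libraries 0.75 (adjusted p = 0.35).

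The window around the Ass1 start is shown because Ass1 had the largest fitted fold change of the members tested and is the 1 member of the 4 with RefSeq windows that held the motif searched. RefSeq windows of 250 bases before to 50 bases after the start, on GRCm38.p6, were on hand for Ass1, Oat, Odc1 and Slc7a1. They were searched on both strands for CACGTG, the palindromic E-box that MYC and related factors bind. The motif was in the Ass1 window and in none of those of Oat, Odc1 and Slc7a1, and 7.15% of 32851 mouse windows of the same length held it. A match is a run of letters and not evidence of binding. The Ass1 window, chr2:31470020-31470319 on the plus strand, is given 5′ to 3′ with the motif, which starts at base 215, in capitals.
Ass1: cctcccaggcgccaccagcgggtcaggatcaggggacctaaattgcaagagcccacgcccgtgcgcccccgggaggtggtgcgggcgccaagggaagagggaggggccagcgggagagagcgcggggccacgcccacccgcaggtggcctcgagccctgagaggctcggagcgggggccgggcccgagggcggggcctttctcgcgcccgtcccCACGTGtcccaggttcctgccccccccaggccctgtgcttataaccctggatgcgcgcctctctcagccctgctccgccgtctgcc

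Asl (chromosome 5, 130011258 to 130029247, minus strand) encodes argininosuccinate lyase, which releases arginine from the product of Ass1. It had 26.9, 33.5, 39.3, 36.2 and 28.7 CPM in IL6 shRNA1 libraries, against 29.3, 26.0, 29.3, 31.4 and 20.9 CPM in control libraries. The groups overlapped, with IL6 shRNA1 libraries 1 and 5 inside the control range. The log2 fold change was 0.27 ± 0.13 (SE, 95% interval -0.022 to 0.55, edgeR adjusted p = 0.19), and 0.18 without the 3 far libraries. Per length, Ass1 was 1.72 to 3.73 times Asl in IL6 shRNA1 libraries and 0.616 to 2.42 times Asl in control libraries. Ass1 was above Asl in all 5 IL6 shRNA1 libraries and in 4 of the 5 control libraries, the exception being control library 2, which is among the 3 far libraries.

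Odc1 (chromosome 12, 17544794 to 17551505, plus strand) encodes ornithine decarboxylase, the gateway to the polyamines. It had 230.4, 299, 328, 287 and 232 CPM in IL6 shRNA1 libraries, against 229, 200.3, 255, 279 and 189 CPM in control libraries. IL6 shRNA1 libraries 2, 3 and 4 lay above every control, libraries 1 and 5 did not, and the log2 fold change was 0.26 ± 0.13 (SE, 95% interval -0.032 to 0.54, edgeR adjusted p = 0.21), and 0.17 without the 3 far libraries. A small nucleolar RNA model, Gm22748, lies inside the gene on the same strand, and reads from it could not be separated.

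Srm (chromosome 4, 148591503 to 148594993, plus strand) encodes spermidine synthase, the next enzyme of that path. It had 121, 157, 189, 155 and 118 CPM in IL6 shRNA1 libraries, against 139, 152, 143, 167 and 153 CPM in control libraries. The IL6 shRNA1 libraries lay on both sides of the controls, which were tighter, and the log2 fold change was -0.027 ± 0.12 (SE, 95% interval -0.30 to 0.24, edgeR adjusted p = 0.91). Its direction turned, with 0.052 without IL6 shRNA1 library 1, 0.048 without IL6 shRNA1 library 5 and 0.012 without control library 4, and it was 0.053 without the 3 far libraries. Per length, Odc1 was 0.815 to 0.922 times Srm in IL6 shRNA1 libraries and 0.581 to 0.835 times Srm in control libraries, so Srm exceeded Odc1 in all 10.

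Oat (chromosome 7, 132557478 to 132576398, minus strand) encodes ornithine aminotransferase, which sends ornithine toward glutamate and proline. It had 216, 208, 202, 196 and 197 CPM in IL6 shRNA1 libraries, against 219, 256, 211, 208 and 244 CPM in control libraries. Its spread was small, with a coefficient of variation of 4.06% in IL6 shRNA1 libraries and 9.33% in control libraries. Control libraries 2 and 5 stood above the rest, and the groups overlapped. The log2 fold change of -0.16 ± 0.071 (SE, 95% interval -0.31 to -0.0015) did not pass the test (edgeR adjusted p = 0.16) and was 0.0011 with the leukocyte score as a covariate and -0.048 without the 3 far libraries, of which control libraries 2 and 5 are part. The gene lies inside the annotated span of Fgfr2 on the same strand, which had 37 to 377 counts per library.

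Slc7a1 (chromosome 5, 148327410 to 148399904, minus strand) encodes CAT1, the widely expressed cationic amino acid transporter. It had 99.9, 95.9, 83.0, 75.6 and 95.2 CPM in IL6 shRNA1 libraries, against 93.7, 95.1, 90.8, 128 and 80.3 CPM in control libraries. The groups overlapped, control library 4 was highest, and the log2 fold change was -0.12 ± 0.12 (SE, 95% interval -0.39 to 0.15, edgeR adjusted p = 0.55), and -0.23 without the 3 far libraries.

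Slc7a2 (ENSMUSG00000031596.15, chromosome 8, 40862396 to 40922308, plus strand) encodes CAT2, the transporter that in mouse macrophages is induced together with arginine-using enzymes. It had 334, 187, 123, 174 and 240.1 CPM in IL6 shRNA1 libraries, against 238, 435, 221, 326 and 527 CPM in control libraries. Control libraries 2 and 5 were the highest and IL6 shRNA1 library 3, which had the most Arg1, was the lowest, although the groups overlapped. The means were 212 ± 79.9 CPM in IL6 shRNA1 libraries and 349 ± 131 CPM in control libraries (SD, n = 5 each). Its log2 fold change of -0.72 ± 0.31 (SE, 95% interval -1.41 to -0.037) did not pass the test (edgeR adjusted p = 0.14). It was 0.086 with the leukocyte score as a covariate and -0.36 without the 3 far libraries. Per length, Slc7a2 was 1.87 to 4.21 times Slc7a1 in IL6 shRNA1 libraries and 3.07 to 8.28 times Slc7a1 in control libraries, so Slc7a2 was the more abundant of these transporters in all 10 libraries.

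With Arg1 set aside, 8 of the other 9 genes passed the filter and 0 of those 8 passed an adjusted p under 0.05 in edgeR, beside 11.8% of the 15064 genes tested (5.62% higher and 6.16% lower). No reading is taken from that comparison, since the list was drawn up by role but with results of these data known. At an unadjusted p under 0.05 there were 3, Ass1, Oat and Slc7a2, while DESeq2 called 1 (Ass1) and limma voom 0. Over all genes tested, DESeq2 called 3027 and limma voom 1866. The share of all genes at that unadjusted threshold is not given here, so no reading is taken from the 3. The median log2 fold change of the 8 was 0.11, beside -0.013 over all genes tested. None of the 9 had groups that did not overlap, a pattern seen in 10.9% of genes tested (IL6 shRNA1 higher in 4.81%, lower in 6.13%). The fitted values had both signs: Ass1, Asl, Nos2 and Odc1 had positive ones and Oat, Srm, Slc7a1 and Slc7a2 negative ones. Since 0 of the 8 passed, these signs do not show whether the genes moved together. A value that missed the threshold does not show that the groups were equal, and the intervals above give the sizes the data allow.

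**Figure D2:**
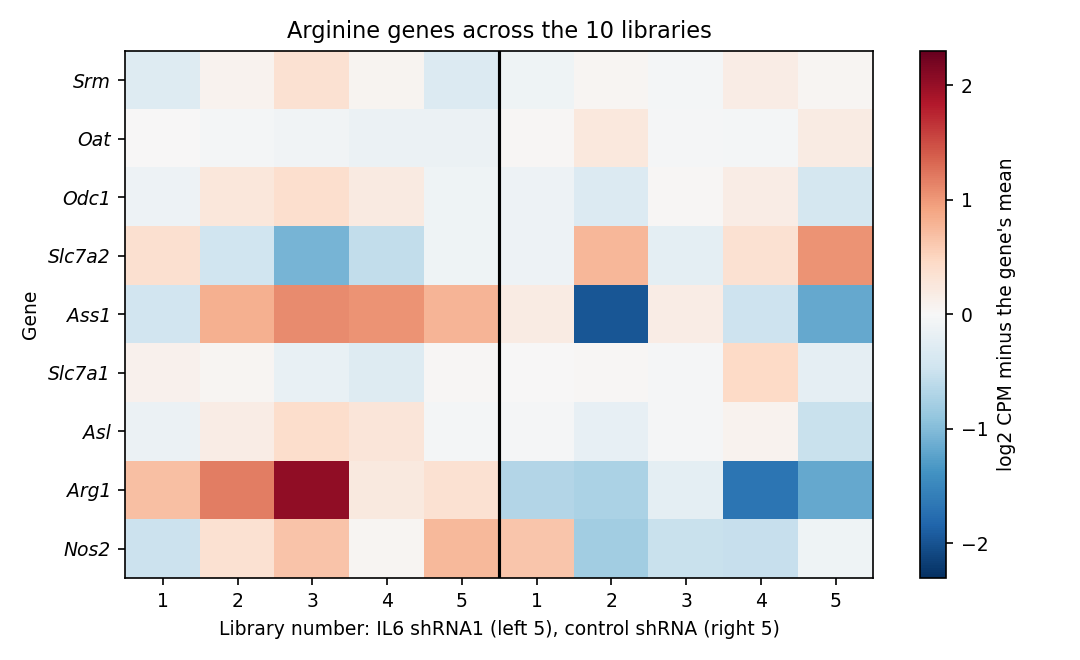
Log2 CPM of 9 arginine genes (rows, Arg2 left out for its low counts) in each library, minus the gene's mean over all 10, with IL6 shRNA1 libraries 1 to 5 on the left and control libraries 1 to 5 on the right. Arg1 is above its mean in all 5 IL6 shRNA1 libraries and Slc7a2 is highest in control libraries 2 and 5, where Ass1 is lowest.

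Several members followed the leukocyte score from library to library within the groups. The score was 0.46 ± 0.37 in IL6 shRNA1 libraries and -0.46 ± 0.58 in control libraries (SD, n = 5 each). After each group's mean was taken off, the Pearson correlation with the score over the 10 libraries was 0.96 for Ass1 and 0.72 for Nos2, and 0.13 for Arg1. It was -0.80 for Oat and -0.77 for Slc7a2, 0.54 for Asl and 0.48 for Odc1, 0.042 for Srm and -0.15 for Slc7a1. Against the 6 fibroblast and pericyte markers the correlation was 0.91 for Slc7a2, -0.93 for Odc1, -0.91 for Asl, -0.73 for Srm, -0.67 for Ass1, -0.57 for Arg1, 0.54 for Oat, -0.15 for Nos2 and 0.066 for Slc7a1. All of these share libraries and scaling and are given as description only. Ass1 per 1000 CPM of macrophage markers was 19.8 ± 4.00 CPM in IL6 shRNA1 libraries and 16.2 ± 4.60 CPM in control libraries, closer than the CPM values. With the leukocyte score as a covariate, the log2 fold change was -0.25 for Nos2 (adjusted p = 0.82), 0.031 for Asl and 0.040 for Odc1.

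**Figure D3:**
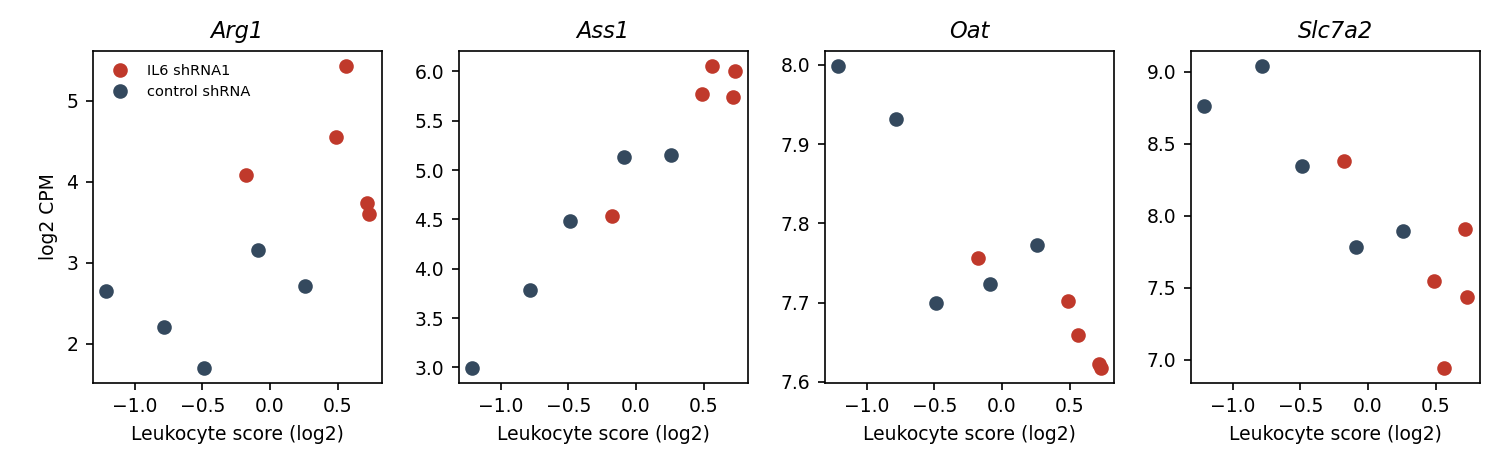
Log2 CPM of Arg1, Ass1, Oat and Slc7a2 against the leukocyte score of the same library (mean centred log2 CPM of 10 leukocyte markers), 1 point per library, IL6 shRNA1 in red and control shRNA in blue. Ass1 climbs with the score across both groups and Oat and Slc7a2 decline, and only IL6 shRNA1 library 1, at a score of -0.18, lies among the scores of the controls.

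Other enzymes around arginine were taken by list, beside 5.62% of all genes tested called higher and 6.16% called lower. Of 10 genes of the urea cycle and of arginine's precursors, 6 were tested, 3 rose and 0 fell (median log2 fold change 0.17). Otc, which lies on the X chromosome, was listed at 0 in all 10 libraries. A smaller share of genes had any count on that chromosome than on chromosomes 1 to 19, as given below, so no level is drawn from Otc. Cps1, Nags and Slc25a2 had 3, 25 and 11 counts in all, so these genes of urea synthesis in the liver were at or near the limit of counting. Among those that rose, Glul, glutamine synthetase, averaged 87.6 CPM in IL6 shRNA1 libraries and 59.1 CPM in control libraries (edgeR adjusted p = 0.0042). Got1, which makes the aspartate that Ass1 uses, averaged 111 CPM in IL6 shRNA1 libraries and 87.2 CPM in control libraries (edgeR adjusted p = 0.031). Got1 lost its call without IL6 shRNA1 library 2, 3 or 5 or control library 1, 3 or 5 (adjusted p 0.051 to 0.082). Glul lies on chromosome 1, where the median log2 fold change of 917 tested genes was 0.32 and 29.2% were called higher. None of the 10 members lies on that chromosome. None of the 3 passed with the leukocyte score as a covariate or without the 3 far libraries. Over all genes tested, calls fell from 1775 to 122 with the covariate and to 212 without the far libraries.

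The list of 12 genes for nitric oxide control and its cofactor held 0 that rose and 4 that fell (median log2 fold change -0.036). Gucy1b1 and Gucy1a1 encode the subunits of the soluble guanylate cyclase, the receptor for nitric oxide. Gucy1b1 averaged 3.29 CPM in IL6 shRNA1 libraries and 9.49 CPM in control libraries, a log2 fold change of -1.53 ± 0.22 (SE, edgeR adjusted p = 0.0034). Gucy1a1 averaged 9.59 CPM in IL6 shRNA1 libraries and 38.1 CPM in control libraries, a log2 fold change of -1.99 ± 0.46 (SE, edgeR adjusted p = 0.025). Neither gene's groups overlapped. The call of Gucy1a1 was lost without IL6 shRNA1 library 2, 3 or 5 or control library 2 or 5 (adjusted p 0.052 to 0.062), while that of Gucy1b1 held in all 10 omissions. Ddah2, which clears an inhibitor of nitric oxide synthases, averaged 41.7 CPM in IL6 shRNA1 libraries and 55.8 CPM in control libraries (edgeR adjusted p = 0.023, and 0.057 to 0.059 without control library 2 or 5). The fourth was the neuronal synthase Nos1, with 18.9 CPM in IL6 shRNA1 libraries and 25.9 CPM in control libraries (edgeR adjusted p = 0.030). The endothelial synthase Nos3, at 7.84 CPM in IL6 shRNA1 libraries and 5.48 CPM in control libraries, did not pass (edgeR adjusted p = 0.14). Gch1, the first enzyme of cofactor synthesis, had 8.48 CPM in IL6 shRNA1 libraries and 4.52 CPM in control libraries (edgeR adjusted p = 0.078). With the leukocyte score as a covariate 0 of the 12 were called, and without the 3 far libraries 1. In the same settings, calls over all genes tested fell from 1775 to 122 and 212.

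**Figure D4:**
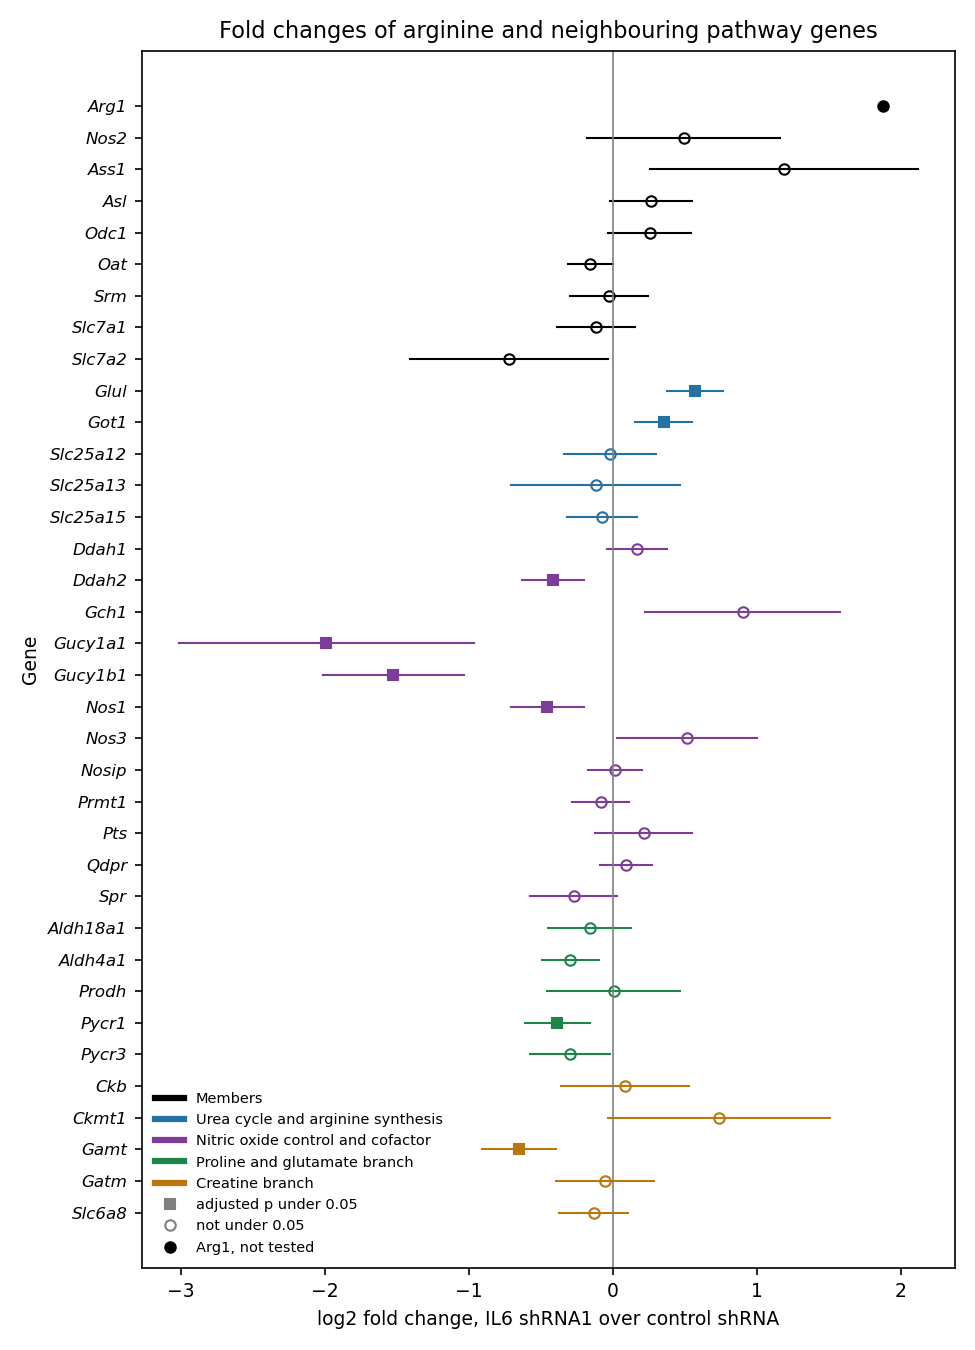
Fitted log2 fold changes, IL6 shRNA1 over control shRNA, with 95% intervals, of the tested arginine genes and of genes from the lists around them, filled squares marking an adjusted p under 0.05. The squares on the right lie among urea cycle and precursor genes (Glul and Got1). Those on the left lie among nitric oxide genes (Gucy1a1 at -1.99), the proline branch (Pycr1) and the creatine branch (Gamt). Arg1, at 1.88, has no interval because it was chosen for its rise.

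Of 18 genes of polyamine synthesis and turnover beyond Odc1 and Srm, 14 were tested and 0 passed in edgeR, with a median log2 fold change of 0.029, 1 at an unadjusted p under 0.05 (Oaz2, at 95.9 CPM in IL6 shRNA1 libraries and 113 CPM in control libraries), and 0 by DESeq2 or limma voom. As above, no reading is taken from the count at an unadjusted p. The antizyme Oaz1, which marks ornithine decarboxylase for destruction, averaged 405 CPM in IL6 shRNA1 libraries and 411 CPM in control libraries, and the antizyme inhibitor Azin1 averaged 118 CPM in IL6 shRNA1 libraries and 115 CPM in control libraries. Sat1 and Sms were listed at 0 in every library and no level is drawn from them. In the proline branch, 6 of 6 genes were tested, and 1 rose and 1 fell (median -0.23). Pycr1, a mitochondrial enzyme of the last step of proline synthesis, averaged 38.0 CPM in IL6 shRNA1 libraries and 49.7 CPM in control libraries (edgeR adjusted p = 0.035). The call was lost in 7 of 10 omissions of a library (adjusted p up to 0.082) and without the 3 far libraries (log2 fold change -0.22, adjusted p = 0.33).

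In the creatine branch, which draws on arginine for guanidinoacetate, 1 of 5 tested genes fell (median -0.053), beside 6.16% of all genes tested. Gamt, which methylates guanidinoacetate to creatine, averaged 13.5 CPM in IL6 shRNA1 libraries and 21.2 CPM in control libraries, with no overlap (log2 fold change -0.65 ± 0.12, SE, edgeR adjusted p = 0.0080), and it kept its call in all 10 omissions. With the leukocyte score as a covariate its adjusted p was 0.24, and without the 3 far libraries it was 0.079. Of 14 other genes of amino acid transport and arginine sensing, 12 were tested and 0 passed in edgeR or limma voom, with 3 at an unadjusted p under 0.05 and 1 called by DESeq2 (median 0.074). Again, no reading is taken from the count at an unadjusted p. Slc7a7, the exporter of cationic amino acids, averaged 31.3 CPM in IL6 shRNA1 libraries and 42.6 CPM in control libraries (edgeR adjusted p = 0.064). Slc3a2, the heavy chain it pairs with, averaged 221 CPM in IL6 shRNA1 libraries and 204 CPM in control libraries (edgeR adjusted p = 0.38).

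Macrophage state genes were counted beside macrophage markers that were themselves higher in IL6 shRNA1 libraries, as given above. Over all genes tested, 5.62% were called higher and 6.16% lower. Of 14 genes responsive to interleukin-4, the list to which Arg1 would belong, 10 were tested, 2 rose and 0 fell (median 0.64). All 10 fitted values were positive. So were all 11 of the interferon gamma and lipopolysaccharide list below and all 13 of the macrophage and monocyte markers. Over all genes tested, 7211 of 15064 were positive. Mrc1, the mannose receptor, averaged 37.9 CPM in IL6 shRNA1 libraries and 17.4 CPM in control libraries (edgeR adjusted p = 0.042). Msr1, a scavenger receptor, averaged 40.5 CPM in IL6 shRNA1 libraries and 26.7 CPM in control libraries (edgeR adjusted p = 0.046). Retnla, Ccl17, Ccl24 and Ear2 were too low to test, and Chil3 averaged 2.42 CPM in IL6 shRNA1 libraries and 1.99 CPM in control libraries (edgeR adjusted p = 0.81). Of 14 genes responsive to interferon gamma and lipopolysaccharide, the list to which Nos2 would belong, 11 were tested, 5 rose and 0 fell (median 1.07). Il1b, the cytokine interleukin-1 beta, averaged 25.4 CPM in IL6 shRNA1 libraries and 7.43 CPM in control libraries, with no overlap (edgeR adjusted p = 0.016). Ptgs2, the inducible cyclooxygenase, averaged 227 CPM in IL6 shRNA1 libraries and 98.8 CPM in control libraries (edgeR adjusted p = 0.020), and Il1a averaged 1.1 CPM in IL6 shRNA1 libraries and 0.361 CPM in control libraries (edgeR adjusted p = 0.037). Ptgs2 lies on chromosome 1, where the median log2 fold change was 0.32 and 29.2% of tested genes were called higher. In omissions of 1 library the call was lost in 8 of 10 for Mrc1, 7 of 10 for Msr1, 7 of 10 for Il1a, 2 of 10 for Ptgs2 and 0 of 10 for Il1b. With the leukocyte score as a covariate, and also without the 3 far libraries, 0 genes of either list were called. Calls over all genes tested also fell, from 1775 to 122 with the covariate and to 212 without the far libraries. The score itself averaged 0.46 in IL6 shRNA1 libraries and -0.46 in control libraries. The loss of calls is therefore not particular to these lists. The fitted values shrank for Mrc1 (0.36 with the covariate, 0.61 without the far libraries, against 1.12 in the fit of all libraries), Msr1 (0.11 and 0.42, against 0.60) and Il1b (1.05 and 1.43, against 1.77). They shrank less for Ptgs2 (1.12 and 0.97, against 1.20) and not for Il1a (2.34 and 2.15, against 1.62).

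Among 12 regulators known to act on Arg1 or Nos2, 0 rose and 2 fell (median 0.069), beside 5.62% higher and 6.16% lower over all genes tested. No reading about the list is taken from so few calls. Pparg, a nuclear receptor that in mouse macrophages supports Arg1 expression, averaged 3.50 CPM in IL6 shRNA1 libraries and 7.42 CPM in control libraries, with no overlap (edgeR adjusted p = 0.0083, still past the threshold in all 10 omissions). It passed without the 3 far libraries (adjusted p = 0.048) but not once the leukocyte score was a covariate (log2 fold change -0.79, adjusted p = 0.26). Pparg lies on chromosome 6, where the median log2 fold change was -0.23 and 27.1% of tested genes were called lower. Rela, a subunit of NF-kB, averaged 103 CPM in IL6 shRNA1 libraries and 120.3 CPM in control libraries (edgeR adjusted p = 0.023). It lost the call in 5 of 10 omissions (adjusted p up to 0.062), without the 3 far libraries (adjusted p = 0.19) and with the covariate (adjusted p = 0.29). Stat6, which carries the interleukin-4 signal, averaged 115 CPM in IL6 shRNA1 libraries and 112 CPM in control libraries (edgeR adjusted p = 0.70). Cebpb, which acts on the Arg1 enhancer in mouse macrophages, averaged 58.3 CPM in IL6 shRNA1 libraries and 54.3 CPM in control libraries (edgeR adjusted p = 0.71).

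The genes whose log2 CPM followed each member most closely over the 10 libraries, once each group's mean was removed, were taken among 10874 genes (10875 for Nos2) with a mean of at least 5 CPM. For Arg1 they were Thyn1 (r = 0.96), Setdb2 (0.92), Ddt (0.91), Rpap1 (0.90) and Nxnl2 (0.90). For Nos2 they were Ccl8 (r = 0.93), Atp2a3 (0.91), Lag3 (0.90), Rnf19b (0.90) and Mgst1 (0.89). For Odc1 they were Ajuba (r = 0.98), Trabd (0.97), Ddx39 (0.97), Trmt2a (0.96) and Trmt1 (0.96). For Slc7a2 they were Lamb2 (r = 0.99), Bag3 (0.98), Emsy (0.98), Tm9sf4 (0.97) and Mrc2 (0.97). The values rank likeness and no more, since all genes share the libraries and their scaling. Among the members themselves the closest pair was Asl with Odc1 (r = 0.93). Slc7a2 ran opposite to Asl (r = -0.88), Ass1 (r = -0.86) and Odc1 (r = -0.82).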

How the data were processed

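RNA was sequenced from 10 libraries in 2 groups of 5, taken from the sample titles. The authors deposited a table of raw whole-number counts per gene and a table of FPKM values, each the count over gene length and library total (deviating by at most 9.4e-07 of the value). The submitters' processing notes name the aligner STAR 2.7.0f, featureCounts of Subread 1.6.4, Trim Galore 0.6.6, SAMtools 1.11, R 4.0.4 and FastQC 0.11.9, and the mouse builds GRCm38 and mm10. How strand and multi-mapping reads were handled, which annotation release was used and what made the FPKM values is not given in the sources used here. Reads of near-identical copies could be split: Ass-ps1, a copy of Ass1, had 0 counts in all libraries.

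edgeR 4.0.16 under R 4.3.3 was used to fit the counts. The filter was filterByExpr by group with a minimum count of 10, which 15064 genes passed, and TMM factors scaled the libraries. A quasi-likelihood model of the group (robust=TRUE) was tested over all of them, with Benjamini-Hochberg adjustment, and an adjusted p under 0.05 was a call. The test was checked on simulated counts with known changes. CPM values are counts divided by the TMM-scaled library size, on the usual CPM scale, and intervals are 95%. Per-gene values over 5 libraries were compared by an exact permutation test where a gene was not in the fit, whose smallest p is 0.0079. Alternatives were other scaling factors and filters, DESeq2 1.42.0, limma 3.58.1 (voom, and log2 FPKM with pseudocounts of 1 and 0.1), no robust dispersion, an adjusted p under 0.01, the title number as a block, the leukocyte score as a covariate, and omission of libraries. Figures and summaries were made with matplotlib 3.10.9, numpy 2.4.6 and pandas 2.3.3 (Python 3.11.15).

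The members, lists, tests and alternatives were chosen with earlier results of these data known. The genes named were Il6, the members, up to 3 called genes with the smallest p of each pathway or macrophage list, up to 2 called and the most abundant of each marker list, and the 5 most like Arg1, Nos2, Odc1 and Slc7a2. A few genes that the rule takes are not reported here. Any further gene in the text was picked with its values in view.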

Additional observations from a re-analysis of the deposited data

Results flagged for a closer look

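IL6 shRNA1 library 1 stood apart from the other 4 libraries of its group in 3 measures, each time on the low side by more than Dixon's criterion for 5 values (0.71). Its leukocyte score was -0.1804, against 0.49 to 0.73 in the other IL6 shRNA1 libraries. Its macrophage markers summed to 1709 CPM, against 2583 to 2924 CPM in the other IL6 shRNA1 libraries. Its ratio of Ass1 to Asl in FPKM was 1.719, below the other IL6 shRNA1 libraries. The same library had the lowest Ass1 and the highest Slc7a2 of its group, while its Arg1, at 16.9 CPM, lay inside the range of the others. In all, 40 groups of values were checked, and chance alone gives such a sign in about 1 in 20 groups. That rate is for 1 check and does not weigh the 3 signs together, since the measures are related. With group means taken off, Ass1 followed both the leukocyte score (r = 0.96) and the macrophage score (r = 0.95).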

How the results depend on the processing

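The number of genes called, 1775, was 3027 with DESeq2, 381 at an adjusted p under 0.01, 122 with the leukocyte score as a covariate, 212 without the 3 libraries farthest on the first component, and 864 to 2774 with 1 library left out. Members called, 0 with Arg1 set aside, came to 1 with DESeq2 and to 0 to 1 with 1 library left out, in each case Ass1 (without IL6 shRNA1 library 1). The fitted value of Arg1, whose direction its selection fixed, ran from 1.47 to 2.08 over 24 alternatives. With the title number as a replicate block 755 genes and 0 members were called. No pairing by number was seen, since correlations of same-numbered deviations ran from -0.35 to 0.31 and 1 of 5 IL6 shRNA1 libraries matched its own number best. With so few libraries and no reference for these correlations, the check cannot exclude a weak pairing.

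Log2 fold changes turned round with the leukocyte score as a covariate for Ass1 (-0.14), Nos2 (-0.25), Oat (0.0011), Slc7a2 (0.086), Il6 (-0.55), Acta1 (-1.09), Col1a1 (0.65), Csf3r (-0.44), Fabp4 (-0.38) and Hbb-bs (-0.19). Without the 3 far libraries they turned for Srm (0.053) and Col1a1 (0.29). With 1 library left out they ran from -0.12 to 0.052 for Srm, -0.24 to 0.11 for Col1a1 and -0.039 to 0.21 for Kdr. The cause was not tested. Depth limits Arg2 and Il6, at 3 to 12 and 9 to 48 counts per library.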

Other observations

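Sat1 and Sms, the polyamine enzymes listed at 0, lie on the distal X chromosome, in a stretch chosen after its values were seen. From base 150000000 of the X chromosome on, 2 of 121 protein-coding genes had any count (1.65%). Before that base 357 of 812 had one (44.0%), and on chromosomes 1 to 19 it was 17203 of 20739 (83.0%). Genes of wide expression in that stretch, Tmsb4x, Huwe1 and Eif1ax, were also at 0 in all 10 libraries, whereas Hprt, nearer the other end, had 15937 counts. The zeros are thus a property of the table in both groups, their cause was not tested, and the levels of Sat1 and Sms are not known from it.

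Chromosomes differed in how their genes moved. On chromosome 1, 29.2% of 917 tested genes were called higher and 0.109% lower. On chromosome 6 the median log2 fold change was -0.23 and 27.1% were called lower. The members lie on chromosomes 2, 4, 5, 7, 8, 10, 11 and 12.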
